A study of Mus musculus with 9 samples.

Results

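The genes described here encode 9 scaffold proteins of the postsynaptic density in the mouse hippocampus. They were chosen by gene symbol and are Dlg1, Dlg2, Dlg3, Dlg4, Shank1, Shank2, Shank3, Homer1 and Dlgap1, 9 of the 54532 genes in the deposited tables. The postsynaptic density is the dense protein layer under the membrane of excitatory synapses, where glutamate receptors are held. The Dlg proteins (SAP97, PSD-93, SAP102 and PSD-95, in the order Dlg1, Dlg2, Dlg3 and Dlg4) bind receptors and adhesion molecules at the membrane. Dlgap1 (GKAP) links them to the Shank proteins, and Homer1 joins Shank to metabotropic glutamate receptors and calcium stores. Such scaffolds are best known in the hippocampus for their part in anchoring receptors and in synaptic plasticity.

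RNA of the hippocampus was sequenced in 9 samples, 3 in each of 3 groups. All were from male C57BL/6 mice that were 6 to 8 weeks old when bought, except that the strain labels of the betaine samples count upward from C57BL/6 to C57BL/7 and C57BL/8. The Con group ate a standard diet for 8 weeks. The HMD group ate a high-methionine diet for 8 weeks, a model in which blood homocysteine rises. The Bet+HMD group ate the high-methionine diet for 8 weeks and was then given betaine, a methyl donor used to lower homocysteine. The betaine was given at 2.5% (w/v) in the drinking water for 2 weeks. The age of each group at tissue collection is not given in the sources used here, so betaine and any difference in age cannot be told apart. The HMD model is a dietary one, with no allele or transgene in any group. The study's methods describe female mice. In all 9 libraries the summed FPKM of 4 Y-linked genes ran from 25.6 to 36.9, and Xist, the transcript of the inactive X chromosome, was at most 0.0449 FPKM. There was no group given betaine on the standard diet.

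Levels are FPKM, fragments scaled to gene length and to library size, so levels of genes of different length can be set side by side. The Con and HMD samples are in both an earlier and a later table, and the Bet+HMD samples are in the later one alone. Reads assigned to genes ran from 16031464 to 18291952 per library in the later table, and each of the 9 genes had between 1699 and 14515 reads in every library. The Bet+HMD libraries stood apart as a group. Their summed FPKM over all genes was 249135 to 258514, against 288439 to 307899 in Con and 289606 to 292361 in HMD, and they resembled each other more closely than the replicates of the other groups did. The chi-square per degree of freedom between their reads was 3.00 to 4.21, against 11.8 to 42.2 between replicates of Con or of HMD. Nothing in the labels says that the 3 libraries of a group came from separate mice, so p-values measure the spread between these samples, which may be technical. Betaine and the handling of the added libraries cannot be told apart. In bulk RNA, fewer neurons and less RNA per neuron cannot be told apart either. The 5 glutamatergic hippocampal markers were present in every library, with a summed level of 825 to 1002 FPKM.

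All 9 genes are protein coding, lie on the plus strand, and have the same coordinates in GENCODE M21, so positions are on GRCm38 (mm10). Dlg1 (ENSMUSG00000022770) is on chr16:31663443-31875129, Dlg2 (ENSMUSG00000052572) on chr7:90476672-92449247, Dlg3 (ENSMUSG00000000881) on chrX:100767722-100818410 and Dlg4 (ENSMUSG00000020886) on chr11:70016942-70047522. Shank1 (ENSMUSG00000038738) is on chr7:44310253-44360572, Shank2 (ENSMUSG00000037541) on chr7:144001928-144424494 and Shank3 (ENSMUSG00000022623) on chr15:89499623-89560261. Homer1 (ENSMUSG00000007617) is on chr13:93299635-93405129 and Dlgap1 (ENSMUSG00000003279) on chr17:69969073-70821413. These are long genes: the deposited gene lengths, which sum exons, ran from 5844 bases for Dlg3 to 17890 bases for Dlgap1, and 7 of the 9 had at least 10000 bases. Other annotated genes overlap 7 of the 9, most of them Dlg2 (30 genes), but no overlapping gene exceeded a mean of 0.328 FPKM. The use of strand in counting is not stated, and how reads of overlapping genes were assigned was not tested.

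The window from 250 bases before to 50 bases after a RefSeq transcription start (GRCm38.p6) was found for 7 of the 9 genes, Shank1 and Shank2 not among them. 3 of these windows are shown because the genes behaved differently below: Dlg1 was higher in Bet+HMD than in both other groups, Shank3 was not, and Homer1 varied most, relative to its mean, within Con and within HMD. Capitals mark GGGCGG, the GC box bound by Sp1-type factors, or TGACG, the core of the cAMP response element, on either strand.
Dlg1, chr16:31663193-31663492, plus strand: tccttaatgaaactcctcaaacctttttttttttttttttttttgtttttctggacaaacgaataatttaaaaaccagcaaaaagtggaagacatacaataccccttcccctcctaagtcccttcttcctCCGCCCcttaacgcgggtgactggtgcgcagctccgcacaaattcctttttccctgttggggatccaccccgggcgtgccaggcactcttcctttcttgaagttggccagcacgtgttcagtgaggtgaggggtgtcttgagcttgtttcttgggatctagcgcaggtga
Shank3, chr15:89499358-89499657, plus strand: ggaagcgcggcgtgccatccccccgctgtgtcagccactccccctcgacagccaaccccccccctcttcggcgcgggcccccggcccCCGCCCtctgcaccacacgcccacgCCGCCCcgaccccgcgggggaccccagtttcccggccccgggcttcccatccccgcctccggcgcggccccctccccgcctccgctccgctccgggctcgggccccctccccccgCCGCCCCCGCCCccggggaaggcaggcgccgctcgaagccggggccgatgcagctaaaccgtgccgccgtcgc
Homer1, chr13:93303507-93303806, plus strand: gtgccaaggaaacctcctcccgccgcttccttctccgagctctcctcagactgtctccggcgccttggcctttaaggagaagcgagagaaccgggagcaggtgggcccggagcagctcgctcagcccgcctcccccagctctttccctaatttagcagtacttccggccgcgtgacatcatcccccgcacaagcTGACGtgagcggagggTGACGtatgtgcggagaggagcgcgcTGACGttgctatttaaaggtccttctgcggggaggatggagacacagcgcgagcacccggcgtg
The Dlg1 window held 1 GC box and 10 CpG at 47.3% G+C. The Shank3 window held 4 GC boxes and 40 CpG at 81% G+C, against a median of 52.7% over all promoter windows in the table. The Homer1 window held 3 TGACG matches and 26 CpG at 63% G+C, and its start lies 4122 bases inside the deposited gene. Of 32851 windows of the same length, 35.7% held GGGCGG and 20.8% held TGACG. The full palindrome TGACGTCA, which contains it, was in 1.79% of windows and in none of these 3. A match describes letters and no measured binding.

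Homer1 makes proteins of opposed function from a single gene. The long forms have a coiled coil that joins them into pairs and meshes, while the short form, Homer1a, lacks it, is induced by neuronal activity and loosens the scaffold. The last 30 coding bases of each are shown, with the stop codon in capitals, because the deposited value for Homer1 adds both forms.
Homer1-204, short form, 186 codons, stop at chr13:93356111-93356113: acattcaattcagcaatcatgattaagTAA
Homer1-201, long form, 354 codons, stop at chr13:93402227-93402229: aatttggccaagctactggaatgcagcTAA
Opposite changes of the short and long forms would offset each other in the Homer1 values given here. Like limits hold for the other genes, since Dlg4 has 22 annotated transcripts, 17 of them coding, and Dlgap1 has 20, 11 of them coding.

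All 9 scaffold genes were expressed in every library, and their levels on the standard diet spanned from about that of Dlg1 to that of Dlg4. In Con, Dlg4 had the highest mean (48.6 ± 6.61 FPKM, SD, n = 3), followed by Shank1 (43.0 ± 10.4) and Dlgap1 (42.1 ± 1.40). Dlg3 (33.3 ± 4.64), Shank3 (30.3 ± 3.66) and Dlg2 (29.6 ± 3.47) followed. Shank2 (18.3 ± 3.48), Homer1 (14.5 ± 3.87) and Dlg1 (11.4 ± 0.891) were lowest. Of neighbors in this order, Dlgap1 and Dlg3, and Dlg2 and Shank2, did not overlap between samples. The other neighbors overlapped and are not ordered by these data, and Shank1, with a lowest sample of 33.0 FPKM, also overlapped Dlg3 and Shank3. In HMD the 3 highest means were again those of Dlg4, Dlgap1 and Shank1, at 39.6 to 41.3 FPKM. In Bet+HMD Shank1 stood first at 75.4 ± 3.51 FPKM, above Dlg4 (50.6 ± 0.918), and Dlg1 (14.3 ± 0.228) stood above Homer1 (12.2 ± 0.628), without overlap in either pair. The spread within groups differed as well. The coefficient of variation of the 9 genes had a median of 13.6% in Con, 9.16% in HMD and 2.12% in Bet+HMD.

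**Figure D1:**
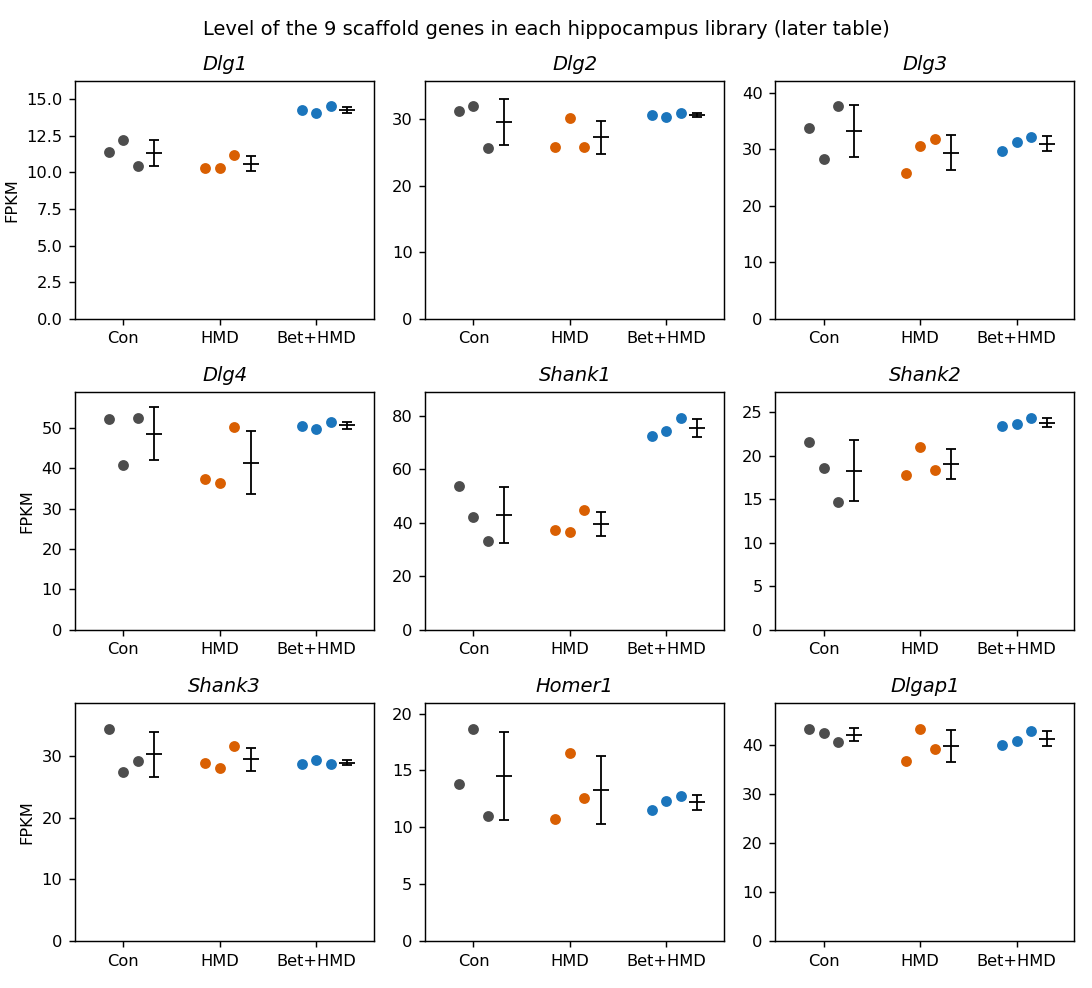
FPKM (y axes, each starting at 0) of the 9 scaffold genes in the 9 libraries of the later table, with points for samples in the order of their replicate numbers and a bar for the mean ± SD of 3 samples. Shank1, Dlg1 and Shank2 lie higher in all 3 Bet+HMD libraries than in any Con or HMD library, and the other 6 genes overlap between Bet+HMD and Con.

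The first comparison asks what 8 weeks of the high-methionine diet did to scaffold transcripts. None of the 9 genes changed detectably. Means were lower in HMD than in Con for 8 genes and higher for Shank2 alone, and the median log2 fold change was -0.09, against -0.0038 over all 12989 genes tested. No gene of the genome passed limma's test at an adjusted p under 0.05 (0% called), and 592 genes (4.56%) had an unadjusted p under 0.05, none of them a scaffold gene. With limma voom on reads recovered from the FPKM values, 0 genes were called as well, and 0 of the 9 had an unadjusted p under 0.05. With all 3 groups in a single fit 9 genes were called, and 2 without Con replicate 2, none of them a scaffold gene. The samples of the 2 groups overlapped for every one of the 9 genes, whereas 9.37% of all genes tested did not overlap.

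Dlg4, which encodes PSD-95, had the largest difference on the diet. Its levels in the earlier table, which was used for this comparison, were 51.4, 40.6 and 51.3 FPKM in Con and 37.1, 35.8 and 49.7 FPKM in HMD. The lowest Con sample lay below the highest HMD sample. The log2 fold change was -0.23 (SE 0.163, 95% interval -0.61 to 0.15, limma adjusted p = 0.980). It ran from -0.14 without HMD replicate 2 to -0.37 without HMD replicate 3, and without the latter Dlg4 had an unadjusted p under 0.05 and an adjusted p of 0.908. Dlg3 (SAP102, prominent early in development) had a log2 fold change of -0.16, Dlg2 of -0.11 and Dlg1 of -0.09. Dlg3 overlapped too, at 33.4, 28.0 and 36.6 FPKM in Con and 25.7, 30.3 and 31.1 FPKM in HMD.

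Among the Shank genes, Shank1 varied most in Con, at 53.0, 41.9 and 32.1 FPKM, and all 3 HMD values (37.1, 36.0 and 44.2 FPKM) fell within that range. Its log2 fold change was -0.09 (95% interval -0.52 to 0.35). Shank3 differed least (-0.03, adjusted p = 0.988), and Shank2 was the gene with the higher mean (0.08, 95% interval -0.28 to 0.44). Homer1 had 13.6, 18.2 and 10.7 FPKM in Con and 10.5, 16.0 and 12.4 FPKM in HMD, a log2 fold change of -0.11 (95% interval -0.60 to 0.39). In both groups replicate 2 was highest. Dlgap1, the adaptor between the families, had a log2 fold change of -0.08.

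The second comparison asks how mice given betaine on the high-methionine diet differed from mice on the diet alone. 3 scaffold genes were higher in Bet+HMD, none was lower and 6 did not pass the test. The 3 were Shank1, Dlg1 and Shank2. Differences between these groups were frequent over all genes, however: 48.3% of the 13672 genes tested were called, 22.8% as higher and 25.5% as lower. The scaffold genes called, all of them higher, were 33.3% of the 9, beside 22.8% of all genes in that direction and 48.3% in either. The median log2 fold change of the 9 was 0.17, against -0.03 over all genes. None reached an absolute log2 fold change of 1 on the FPKM scale, which 8.93% of genes tested did while passing the test, but Shank1 did with TPM (1.13), quantile normalization (1.23) and voom (1.02).

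Shank1, the outer scaffold of mature excitatory synapses, had the largest difference of the 9. It was measured at 37.2, 36.7 and 44.9 FPKM in HMD and at 72.5, 74.3 and 79.3 FPKM in Bet+HMD. Every Bet+HMD library lay far above every HMD library. The ratio of means was 1.90 (log2 fold change 0.92, SE 0.0943, 95% interval 0.70 to 1.14, limma adjusted p = 0.000367). The call held in 17 of 17 alternative analyses, with a largest adjusted p of 0.00301.

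Dlg1 (SAP97), a scaffold known for carrying AMPA receptors along the secretory route, was the lowest Dlg gene in every group. It was measured at 10.3, 10.3 and 11.2 FPKM in HMD and at 14.3, 14.0 and 14.5 FPKM in Bet+HMD, again without overlap. The ratio was 1.35 (log2 fold change 0.40, SE 0.0674, adjusted p = 0.00284), and it was called in 17 of 17 alternatives. Shank2 was measured at 17.9, 21.1 and 18.3 FPKM in HMD and at 23.4, 23.7 and 24.4 FPKM in Bet+HMD. Its groups did not overlap either, and the ratio was 1.25 (log2 fold change 0.31, SE 0.0806, adjusted p = 0.0168). This call was less firm, with 12 of 17 alternatives. It was lost with all 3 groups in a single fit and without any one of the Bet+HMD samples or HMD replicate 1, up to an adjusted p of 0.0849.

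The other 6 genes did not pass. Dlg4 was measured at 37.3, 36.3 and 50.3 FPKM in HMD and at 50.5, 49.7 and 51.5 FPKM in Bet+HMD. HMD replicate 3 lay among the Bet+HMD values, the log2 fold change was 0.30 (95% interval 0.0082 to 0.59) and the adjusted p was 0.0828. Without that sample it passed, with an adjusted p of 0.00231. With all samples kept, Dlg4 also passed under TPM (adjusted p = 0.0159), quantile normalization (0.00474) and voom (0.0195). Dlg2 did not overlap between groups (25.8, 30.1 and 25.7 FPKM against 30.6, 30.3 and 31.0 FPKM) but the difference was small (log2 fold change 0.17, adjusted p = 0.123). Dlg2 passed without HMD replicate 2, and with all samples kept under TPM (adjusted p = 0.00908), quantile normalization (0.00569) and voom (0.0116). In total 4 of the 9 genes did not overlap between the groups, all of them higher in Bet+HMD, beside 60.1% of all genes in either direction and 28.3% in the higher one.

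Shank3 is tied to synaptic disorders in humans. It was measured at 28.9, 28.0 and 31.6 FPKM in HMD and at 28.7, 29.4 and 28.7 FPKM in Bet+HMD. The log2 fold change was -0.03 with a 95% interval of -0.19 to 0.14. Dlg3 (0.08, adjusted p = 0.513) and Dlgap1 (0.05, adjusted p = 0.609) were similarly close. Homer1 had 10.7, 16.6 and 12.6 FPKM in HMD and 11.5, 12.3 and 12.8 FPKM in Bet+HMD. Its log2 fold change was -0.10 (95% interval -0.44 to 0.24), and the Bet+HMD values lay inside the range of the HMD values.

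**Figure D2:**
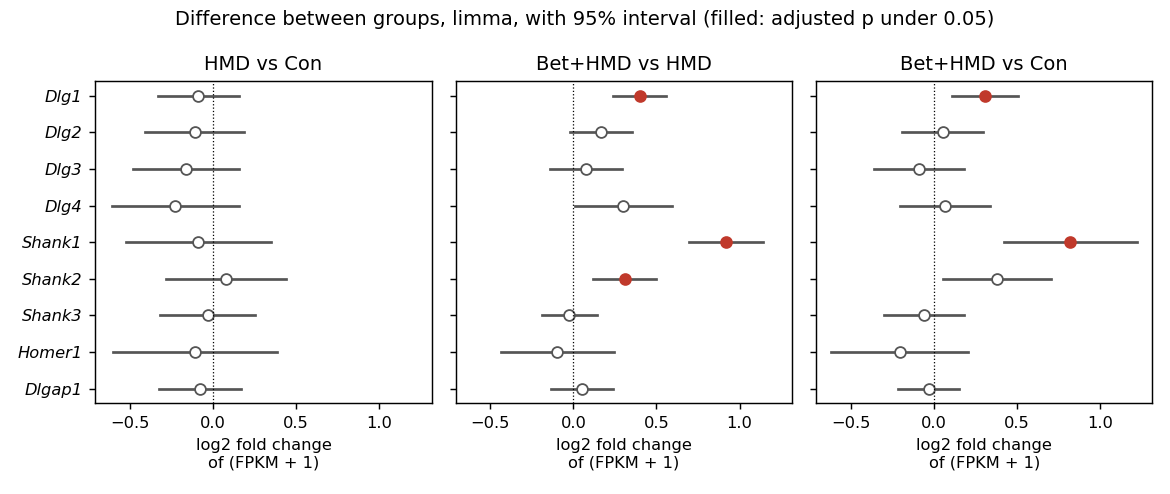
Log2 fold change of (FPKM + 1) on the x axes for the 9 scaffold genes in the 3 comparisons, as points with 95% intervals from limma, filled where the adjusted p was under 0.05. No point is filled for HMD against Con, 3 are filled for Bet+HMD against HMD (Shank1, Dlg1 and Shank2) and 2 for Bet+HMD against Con (Shank1 and Dlg1).

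The third comparison sets Bet+HMD against the standard diet, and it uses the same Bet+HMD libraries as the second. Shank1 and Dlg1 were higher, none was lower and 7 did not pass, beside 39.7% of 13643 genes called, 19.4% as higher and 20.4% as lower. None of the 9 reached an absolute log2 fold change of 1 on the FPKM scale, which 8.74% of genes did while passing the test, but Shank1 did with TPM (1.05) and quantile normalization (1.16). The median log2 fold change of the 9 was 0.06. Shank1 had 53.7, 42.2 and 33.0 FPKM in Con, all below the lowest Bet+HMD value. The ratio was 1.75 (log2 fold change 0.82, SE 0.169, 95% interval 0.42 to 1.22, adjusted p = 0.00925), and the call held in 17 of 17 alternatives. Dlg1 had 11.4, 12.2 and 10.4 FPKM in Con, a ratio of 1.26 (log2 fold change 0.31, SE 0.0836, adjusted p = 0.0254). It was called in 12 of 17 alternatives. The 5 losses were the fit with the replicate number as a block (adjusted p = 0.0918) and those without any one Bet+HMD sample or Con replicate 1, up to an adjusted p of 0.0982.

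Shank2 had 21.6, 18.6 and 14.7 FPKM in Con, below Bet+HMD in every sample, with a log2 fold change of 0.38 and an adjusted p of 0.0650. It was called in 5 of 17 alternatives, among them the fit without Con replicate 1. With Shank1 and Dlg1 it made 3 genes without overlap between these groups, all higher, beside 26.1% of all genes without overlap in that direction. Dlg4 (52.2, 40.9 and 52.5 FPKM in Con) had a log2 fold change of 0.07 and Dlg2 of 0.06. Dlg3 (-0.09), Shank3 (-0.06), Dlgap1 (-0.03) and Homer1 (-0.20, adjusted p = 0.387) had lower means in Bet+HMD on the FPKM scale, and all 4 had a higher mean after rescaling to TPM. On the FPKM scale the Dlg4 values of Bet+HMD thus lay near those of Con, while the Shank1 and Dlg1 values lay above both other groups. Against Con, Dlg4 had a log2 fold change of 0.29 with TPM (limma adjusted p = 0.132). With quantile normalization it had 0.40 and was called as higher (adjusted p = 0.0221).

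The make-up of a family within a library does not change when all values of that library are multiplied by the same factor, as in TPM, although it can change under quantile normalization. Shank1 made up 46.6% ± 3.16 (SD, n = 3) of the summed Shank1 to Shank3 FPKM in Con and 44.8% ± 2.35 in HMD. In Bet+HMD it made up 58.8% ± 0.927, with a lowest sample of 58.2% against a highest of 48.9% in the other groups. The share of Shank3 was 33.5% ± 3.85 in Con, 33.5% ± 0.897 in HMD and 22.6% ± 0.771 in Bet+HMD. Shank2 took 20.0%, 21.7% and 18.6% in the same order. Among the Dlg genes the shift was smaller. Dlg1 took 9.30% ± 1.30 in Con, 9.79% ± 0.518 in HMD and 11.3% ± 0.113 in Bet+HMD, while Dlg4 took 39.4%, 37.9% and 40.0%. These shares are descriptions without a test.

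**Figure D3:**
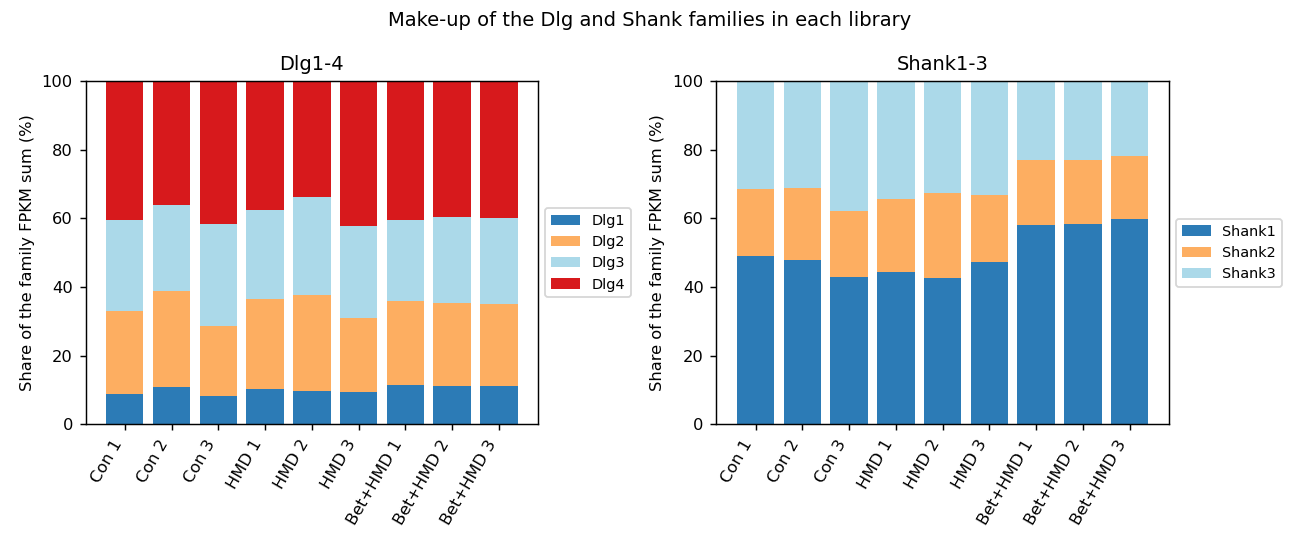
Share (%, y axes) of each gene in the summed FPKM of its family, Dlg1 to Dlg4 on the left and Shank1 to Shank3 on the right, as stacked bars for each of the 9 libraries of the later table. The Shank1 part is 58.2% to 59.9% in the 3 Bet+HMD libraries and at most 48.9% in the other 6.

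The scaling of the libraries moved the Bet+HMD values of all 9 genes in the same direction. The FPKM sums were lower in Bet+HMD, and rescaling each library to TPM moved the median log2 fold change over all genes from -0.03 to 0.16 against HMD and to 0.17 against Con. Of the genes called against HMD, 47.2% were higher on the FPKM scale and 69.5% on the TPM scale, and against Con 48.8% and 73.5%. With TPM 6 scaffold genes were called as higher in Bet+HMD than in HMD, with quantile normalization 8 and with voom 5, beside 32.9%, 22.2% and 28.5% of all genes. Against Con the counts were 3, 4 and 3, beside 29.2%, 19.2% and 23.9%. Relative to the median of all genes under TPM, Shank1 was 0.97 higher, Dlg1 0.46, Shank2 0.36 and Dlg4 0.34 on the log2 scale. Shank3 was 0.01 above that median and Homer1 0.07 below it (-0.07). Shank3 and Homer1 changed sign between scalings and Shank1, Dlg1 and Shank2 did not.

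**Figure D4:**
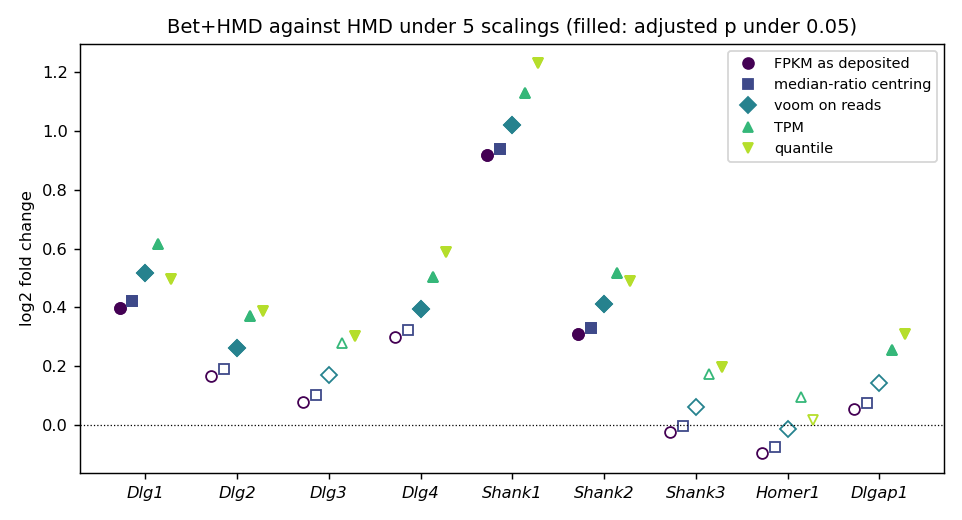
Log2 fold change (y axis) of the 9 scaffold genes in Bet+HMD against HMD under 5 scalings of the libraries, filled where the adjusted p was under 0.05. Shank1 runs from 0.92 to 1.23 and Dlg1 from 0.40 to 0.62, filled throughout, whereas Shank3 and Homer1 lie on both sides of 0.

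Gene length moved with the Bet+HMD comparisons. Among protein-coding genes, the median log2 fold change against HMD was -0.35 for genes under 2000 bases, of which 9.88% were called as higher and 44.5% as lower. It rose with each length class, from -0.15 and -0.05 to 0.02, and reached 0.13 for the 1242 genes of at least 10000 bases, of which 33.9% were called as higher and 8.05% as lower. Against Con the same end classes had medians of -0.45 and 0.17, and for HMD against Con they had -0.10 and 0.04. The part of length in the scaffold genes' values was not tested. Shank1, Dlg1, Shank2, Dlg4, Dlg2, Dlgap1 and Homer1 are in the longest class, and within it they ran from -0.10 for Homer1 to 0.92 for Shank1. Shank1, Dlg1 and Shank2, at 10514, 10736 and 10768 bases, are the shortest of these 7.

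**Figure D5:**
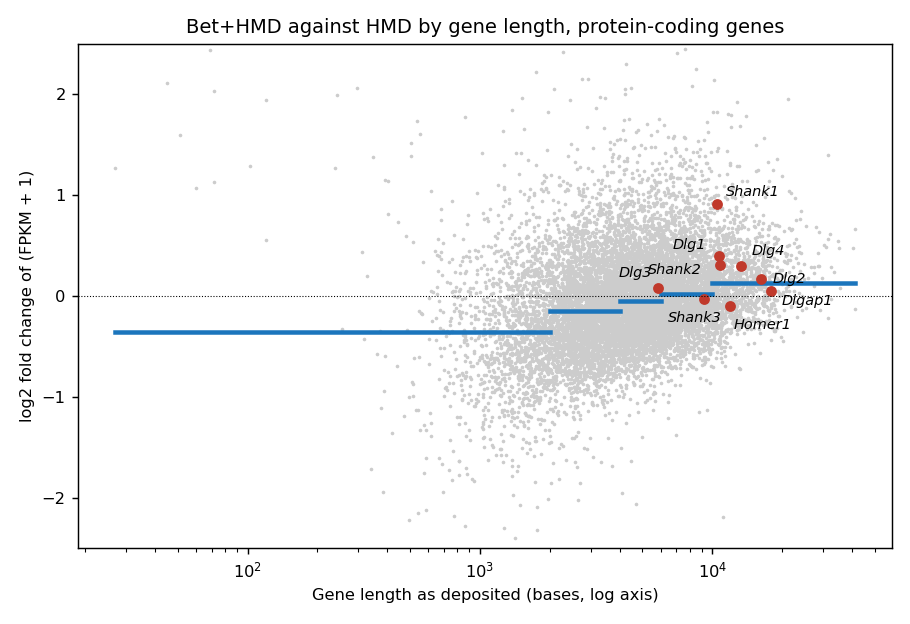
Log2 fold change of (FPKM + 1) in Bet+HMD against HMD (y axis) by deposited gene length in bases (log x axis) for 11933 protein-coding genes in gray, with 18 more outside the axis, the median of each length class as a blue line and the 9 scaffold genes in red. The class medians rise from -0.35 to 0.13, and Shank1 lies well above the median of the longest class.

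Markers of cell types also moved between groups. The summed FPKM of 5 general neuronal markers was 704 to 791 in Con, 718 to 829 in HMD and 653 to 665 in Bet+HMD. The FPKM sum over all genes was lower in Bet+HMD too, as given above, which bears on every marker sum here. The 5 glutamatergic markers were 869 to 1002, 825 to 999 and 852 to 877 in the same order, and the 3 markers of inhibitory neurons 82.3 to 118, 109 to 132 and 79.6 to 81.9. The 4 astrocyte markers were 204 to 205, 201 to 221 and 175 to 177, the 4 microglial ones 51.7 to 59.1, 48.5 to 55.1 and 45.4 to 46.4, and the 3 endothelial ones 26.7 to 32.7, 22.9 to 26.5 and 20.9 to 21.7. Oligodendrocyte markers overlapped between all groups. Markers of neighboring tissue differed between libraries as well. The 5 thalamic markers were 9.30 to 13.4 in Con, 18.4 to 63.9 in HMD, highest in replicate 1, and 18.3 to 18.7 in Bet+HMD, and the 4 choroid plexus markers were 764 to 3186, 857 to 2557 and 923 to 1197. The 6 striatal markers were 17.3 to 27.4, 19.1 to 30.9 and 22.9 to 26.1, and the 5 blood genes 99.8 to 148, 149 to 233 and 72.2 to 122. Their part in the scaffold values was not tested. Without HMD replicate 1, Shank1 and Dlg1 still passed against HMD, and Shank2 did not (limma adjusted p = 0.0516), its log2 fold change being 0.27. The Shank2 call was also lost without any one Bet+HMD sample, so these fits do not show the part of neighboring tissue.

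The 9 genes belong to a wider postsynaptic set, and 30 further genes of it were all expressed highly enough to test. None was called in HMD against Con, where 22 had a lower and 8 a higher mean, with a median log2 fold change of -0.07. The smallest p values there belonged to Dynll1 (-0.36), Lrrtm1 (-0.23), Iqsec1 (0.26) and Kalrn (-0.21), each with an adjusted p of 0.980. Against HMD, 5 were higher and 5 lower in Bet+HMD (33.3% called, beside 48.3% of all genes tested), with a median of -0.02. Cript, which binds the third PDZ domain of PSD-95, was lower (-0.75, adjusted p = 0.000285), at 16.7 ± 0.650 FPKM against 28.8 ± 1.59.

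Homer and Dlgap relatives of the scaffold genes differed from each other. Homer3 was lower in Bet+HMD than in HMD (-0.90, adjusted p = 0.00105), at 4.08 ± 0.533 FPKM against 8.50 ± 1.24, and lower than in Con (-1.10, adjusted p = 0.00150). Homer2 had -0.05 and -0.13, and neither passed. Dlgap2 was higher than in HMD (0.62, adjusted p = 0.00495) and than in Con (0.45, adjusted p = 0.0203), and Dlgap4 was higher than in HMD (0.35, adjusted p = 0.0186) but not past the threshold against Con (0.32, adjusted p = 0.0827). Dlgap3 had -0.15 and -0.23 and did not pass. On the diet alone, Dlgap2 had -0.17, Dlgap3 -0.08, Dlgap4 -0.01, Homer2 -0.08 and Homer3 -0.20, none of them called. Against Con, 2 of the 30 were higher in Bet+HMD, Dlgap2 among them, and 5 were lower (23.3% called, beside 39.7% of all genes tested). Besides Homer3, the lower ones with the smallest adjusted p were Dynll1, a light chain of dynein (-0.83, adjusted p = 0.00898), and Lrrtm1, an adhesion protein of excitatory synapses (-0.46, adjusted p = 0.0111).

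Of 8 receptor and channel genes whose products these scaffolds hold, 0 were called in HMD against Con. Against HMD, 2 were higher in Bet+HMD, Gria2 (0.59) and Cacng2 (0.27). Against Con, 3 were higher and 1 was lower, Gria1 (-0.33). Gphn, which encodes gephyrin, the scaffold of inhibitory synapses, was lower in Bet+HMD than in HMD (-0.40, adjusted p = 0.00628) and had -0.35 against Con (adjusted p = 0.0504). On the presynaptic side, Pclo was higher in both comparisons (0.52, adjusted p = 0.0145, and 0.64, adjusted p = 0.00337), while Bsn (0.24 in both) and Cask (-0.10 and -0.15) did not pass. For HMD against Con these 4 genes ran from -0.05 to 0.12 and none was called.

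Immediate early genes were read beside Homer1, since its short form belongs to that class. All 7 had lower means in HMD than in Con, with log2 fold changes from -0.95 to -0.18, 4 had an unadjusted p under 0.05 and none was called. Against HMD 2 were higher in Bet+HMD and 1 lower (42.9% called, beside 48.3% of all genes tested). Against Con 2 were lower, Arc (-0.67) and Fos (-1.13), or 28.6% called beside 39.7%. Their summed level in the later table was 198, 132 and 122 FPKM in Con, 67.8, 77.7 and 123 FPKM in HMD and 109, 109 and 104 FPKM in Bet+HMD. Homer1 did not have the same order of samples. It was highest in replicate 2 of Con and of HMD, whereas the summed level was highest in replicate 1 of Con and replicate 3 of HMD.

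Profiles most like those of 3 scaffold genes were looked up over the 9 samples of the later table among 11906 protein-coding genes, by the root mean square difference between centered log2(FPKM + 1) profiles. For Dlg4 they were Igsf8 (0.0587), Cacng8 (0.0607) and Cacnb1 (0.0692), against 0.20 for the profile of Dlg4 itself about its mean. For Shank1 they were Cckbr (0.0968), Plxna3 (0.104) and Zdhhc1 (0.114), against 0.450. Mean levels of Cckbr in Con, HMD and Bet+HMD were 3.76, 3.25 and 6.78 FPKM. Like Shank1, it was lower in both groups without betaine than in Bet+HMD, which its choice by profile already implies. For Homer1 they were A830018L16Rik (0.0702), Cnot6 (0.0815) and Lims1 (0.0841), against 0.236.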

How the data were processed

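RNA-seq of 9 mouse hippocampus samples (3 per group) was analyzed from 2 deposited tables. The authors deposited gene expression as FPKM, together with each gene's length in bases, position and biotype. Per the study's methods ribosomal RNA was depleted and stranded paired-end libraries were made. The submitters' processing notes name HISAT2 2.1.0 and featureCounts 1.5.0-p3 and the mm10 build. No source used here gives the strand setting of the counting.

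Columns were matched to samples by name (0 columns unmatched). The COL columns were taken as Con by inference, since HMD and Bet columns name both remaining groups. FPKM multiplied by length and library size gave whole reads for 100% of values. The tolerance was 0.01 reads, and wider in proportion to the count for large counts. The library size was itself estimated from the same values, as the size that made them whole reads. Fits stayed within a table, the earlier one for the diet and the later one for both Bet+HMD comparisons. They used limma 3.58.1 (R 4.3.3) and an intensity trend on log2(FPKM + 1) of the 2 groups compared, for genes with a mean of at least 1 FPKM. Fold changes on this scale understate changes of low genes. p-values were two-sided and adjusted by Benjamini-Hochberg over all genes tested, with a threshold of 0.05, also combined with an absolute log2 fold change of 1. SE is limma's moderated standard error. The script was tested on simulated data.

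The 9 genes and all gene lists were chosen with earlier results of these data known. The 9 genes are named always, the 30 further postsynaptic genes as counts with values for the 4 of smallest adjusted p per comparison and for Homer and Dlgap relatives, receptors as counts, immediate early genes as counts and ranges, and the 3 genes of most similar profile. Single genes named beyond that were chosen after their values were seen, and some genes of these lists are not reported here. Alternatives were a pseudocount of 0.1, no filter or a filter at 5 FPKM, TPM, quantile normalization, median-ratio centering, no trend, all 3 groups in a single fit, protein-coding genes alone, a replicate block, voom on the reads, the diet comparison repeated in the later table, and the omission of each sample in turn.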

Additional observations from a re-analysis of the deposited data

How the results depend on the processing

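Shank1 and Dlg1 kept their direction and their call in Bet+HMD against HMD in 17 of 17 alternatives, and in HMD against Con no scaffold gene was called in 18 of 18. The number of scaffold genes called against HMD, 3 as reported, was 6 with TPM, 8 with quantile normalization and 5 with voom. Against Con it was 4 with quantile normalization instead of 2. Of the 30 other postsynaptic genes, 10 were called against HMD and 6 with all 3 groups in a single fit, and 7 were called against Con and 11 with each of TPM, quantile normalization and voom. The log2 fold change against HMD changed sign for Shank3 (TPM 0.17, quantile 0.20, voom 0.061) and Homer1 (TPM 0.094, quantile 0.017). Against Con it changed sign for Dlg3 (TPM 0.13, quantile 0.17), Shank3 (TPM 0.16, quantile 0.17, voom 0.019), Homer1 (TPM 0.0032) and Dlgap1 (TPM 0.19, quantile 0.26, voom 0.050). With reads in place of FPKM, the Bet+HMD share of Shank1 was 60.2%, and that of Dlg1 was 8.93% in HMD and 10.2% in Bet+HMD. The cause was not tested.

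Leaving out each sample in turn gave 2 to 4 scaffold genes called against HMD, 1 to 2 against Con and 0 to 0 in HMD against Con, and 6 to 12 and 3 to 9 of the other postsynaptic genes against HMD and Con. Log2 fold changes that crossed 0 in these fits ran from -0.27 to 0.084 for Shank1, -0.066 to 0.20 for Shank2, -0.094 to 0.062 for Shank3 and -0.28 to 0.077 for Homer1 in HMD against Con. Against HMD they ran from -0.0098 to 0.14 for Dlg3, -0.061 to 0.023 for Shank3 and -0.23 to 0.062 for Homer1, and against Con from -0.0425 to 0.11 for Dlg2, -0.20 to 0.0014 for Dlg3, -0.049 to 0.13 for Dlg4 and -0.13 to 0.033 for Shank3.

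The replicate numbers showed no pairing of samples in the Bet+HMD comparisons. In HMD against Con, samples numbered 2 and samples numbered 3 were correlated across the groups, and whether they were paired was not tested. Deviations of samples with the same number correlated at -0.06, 0.35 and 0.32 for HMD against Con, 0.02, -0.10 and -0.15 for Bet+HMD against HMD and -0.05, -0.09 and -0.18 for Bet+HMD against Con. With the number as a block, 1 scaffold gene was called in Bet+HMD against Con instead of 2, Dlg1 having an adjusted p of 0.0918. The other counts of scaffold genes were 3 and 0 as reported. For HMD against Con the block gave 1034 genes with an unadjusted limma p under 0.05 instead of 592, and 0 were called. The SE of Dlg4 there was 0.110 instead of 0.163, with an adjusted p of 0.656.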
